A study of Mus musculus with 2 samples.

Results

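The genes of the proteasome, the protease complex that degrades ubiquitin-tagged proteins, were described by their open chromatin in mouse regulatory T cells. They were taken as the GENCODE M21 protein-coding genes whose symbol begins with Psm, a letter from a to g and a digit. This rule found 50 of 21938 protein-coding genes. It also took in Psmc3ip, which is named after a proteasome subunit but encodes a partner protein of meiotic recombination and no subunit. The assay was ATAC-seq, in which the Tn5 transposase cuts and tags DNA where chromatin is accessible. The cells were primary regulatory T cells of a male mouse aged 4 months, from a Foxp3CreERT2 x Rosa26YFP cross, and the labels give bone marrow haematopoietic cells as their origin. In this cross an inducible Cre is under the control of Foxp3, the transcription factor that defines the lineage, and YFP is a reporter at Rosa26. No tamoxifen treatment and no sort gate are named in the labels used here. There are 2 libraries, which are technical replicates of the same biological replicate and make up 1 group. The authors called peaks on an alignment shared by both, so there is no value per library, no spread between animals and no test between conditions. Sequencing depth is unknown, since only peak lists without read counts were analysed.

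The proteasome is built from a barrel-shaped core particle, with rings of alpha subunits outside and rings of beta subunits inside, and a regulatory cap that binds, unfolds and feeds in substrates. In the core, 3 of the beta subunits are proteases. In cells of the immune system, and in others exposed to interferon, these can be replaced by the immunoproteasome subunits Psmb8, Psmb9 and Psmb10, which alter the peptides made for presentation on MHC class I. Assembly chaperones, alternative activators and an inhibitor complete the family. Transcription of many subunit genes can be raised together by Nfe2l1, a factor of the CNC-bZIP family that binds antioxidant response elements.

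The label of the cells was checked with marker genes. A promoter peak was listed for 7 of 7 regulatory T cell markers, but these peaks were weak: the median signal was 5.52, and 0 of 7 exceeded the median over all open protein-coding promoters (17.3). The signals were 15.4 at Cd3e, 9.67 at Il2ra, 9.50 at Foxp3, 5.52 at Ikzf2, 5.47 at Ctla4, 4.56 at Cd4 and 2.69 at Tnfrsf18. The Foxp3 peak does not cover the 5′ end of the gene, and its summit lies 1153 bp inside it, nearer to a start of another gene. The Cd3e summit is also nearer to a start of another gene. The Tnfrsf18 peak does not cover the 5′ end, and the Ikzf2 summit lies 3950 bp inside the gene. A promoter peak was listed for 0 of 10 markers of other cells (Cd8a, Cd79a, Ncr1, Klrb1c, Lyz2, Csf1r, Itgam, Kit, Cd34 and Hbb-bs), which allows a share of up to 30.85% (exact Clopper-Pearson 95% interval). In the longer pseudoreplicated list, Kit and Klrb1c had a promoter peak as well. Over all protein-coding genes the share with a promoter peak was 52.6% in the thresholded and 57.7% in the pseudoreplicated list. These marker counts therefore carry little weight by themselves.

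Nearly the whole family was open at its promoters. A peak of the thresholded list lay within 1 kb of an annotated transcription start site in 47 of 50 proteasome genes (94%, exact Clopper-Pearson 95% interval 83.5 to 98.8%). Over all protein-coding genes this share was 52.6%. In the pseudoreplicated list the count was also 47, against a share of 57.7% over all genes. The 3 genes without a promoter peak in either list were Psma8, Psmb11 and Psme2b. All 31 constitutive genes of the core and the cap had one. Intervals on such shares treat genes as independent draws and cover counting error only. Other housekeeping families had similar shares: 81 of 84 cytosolic ribosomal protein genes (96.4%, interval 89.9 to 99.3%) and 76 of 83 oxidative phosphorylation genes (91.6%, interval 83.4 to 96.5%). The intervals of the 3 families overlap, and a difference between them was not tested.

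The promoters shown first are those of catalytic subunits, because the constitutive and the immune forms are compared with each other. Psmb7, the constitutive trypsin-like protease, had no RefSeq promoter and is not shown. Each line gives bases upstream of a transcription start, from RefSeq on GRCm38.p6, the assembly of the peak lists, with 5′ on the left in the direction of the gene. Capitals mark matches to any of 14 short motifs searched on both strands. Psmb5 encodes the chymotrypsin-like and Psmb6 the caspase-like protease of the constitutive core, and Psmb8, Psmb9 and Psmb10 encode the immune forms of the chymotrypsin-like, caspase-like and trypsin-like proteases.
Psmb5, chr14:54617996-54618145, minus strand: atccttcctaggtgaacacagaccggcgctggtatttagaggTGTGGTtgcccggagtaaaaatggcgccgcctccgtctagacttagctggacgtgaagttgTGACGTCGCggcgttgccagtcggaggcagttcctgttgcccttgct
Psmb6, chr11:70525207-70525356, plus strand: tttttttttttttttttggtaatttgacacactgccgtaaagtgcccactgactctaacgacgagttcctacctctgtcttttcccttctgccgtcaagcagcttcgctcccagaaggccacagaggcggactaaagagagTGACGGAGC
Psmb8, chr17:34198088-34198117, plus strand: tcctccgctgTTCCCAGAAgatgccccccc
Psmb9, chr17:34187331-34187360, minus strand: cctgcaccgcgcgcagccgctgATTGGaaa
Psmb10, chr8:105938415-105938542, minus strand: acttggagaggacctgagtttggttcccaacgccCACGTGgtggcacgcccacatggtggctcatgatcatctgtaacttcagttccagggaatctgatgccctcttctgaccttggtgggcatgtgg
All bases of these 5 stretches lay inside a peak. The capitals in Psmb5 are a RUNX match (TGTGGT), 108 bases upstream of the start, and an antioxidant response element (TGACNNNGC), 47 bases upstream. Psmb6 has an antioxidant response element 9 bases upstream. In the immune forms the capitals are a GAS element (TTCNNNGAA), the kind of site bound by STAT factors, 97 bases upstream in Psmb8, an NF-Y match (CCAAT, here on the other strand) 8 bases upstream in Psmb9, and an E-box (CACGTG) 116 bases upstream in Psmb10. Only 30 bases are shown for Psmb8 and Psmb9, since GENCODE has transcripts that begin further upstream there and the stretch lies in their exons. Those of Psmb8 were placed around its GAS match, from 107 to 78 bases upstream, and those of Psmb9 end at the start. An SP/KLF match 55 bases upstream in Psmb9 therefore falls outside. The motifs in these short stretches cannot be set against those of the longer ones.

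A second set of promoters shows the ETS motif (CCGGAAG), which was found in a larger share of proteasome promoters than of all promoters. They belong to non-ATPase subunits of the cap: Psmd6, Psmd11, Psmd2 and Psmd4, the last a ubiquitin receptor. Psmc4, an ATPase subunit with the strongest promoter peak of the family, is added as a promoter without an ETS match.
Psmd6, chr14:14120955-14121095, minus strand: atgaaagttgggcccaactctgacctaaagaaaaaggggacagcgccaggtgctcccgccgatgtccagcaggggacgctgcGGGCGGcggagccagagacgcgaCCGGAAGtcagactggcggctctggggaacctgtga
Psmd11, chr11:80428465-80428614, plus strand: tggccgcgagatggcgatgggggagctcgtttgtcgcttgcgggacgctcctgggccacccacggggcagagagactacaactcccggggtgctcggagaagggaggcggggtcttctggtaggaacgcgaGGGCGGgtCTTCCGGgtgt
Psmd2, chr16:20651502-20651651, plus strand: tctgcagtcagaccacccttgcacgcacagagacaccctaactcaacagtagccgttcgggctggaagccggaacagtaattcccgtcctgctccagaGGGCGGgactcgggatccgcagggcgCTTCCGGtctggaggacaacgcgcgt
Psmd4, chr3:95042615-95042764, minus strand: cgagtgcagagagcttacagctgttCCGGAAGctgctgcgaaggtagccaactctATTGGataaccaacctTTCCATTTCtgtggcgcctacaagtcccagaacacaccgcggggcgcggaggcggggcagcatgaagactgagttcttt
Psmc4, chr7:28050093-28050242, minus strand: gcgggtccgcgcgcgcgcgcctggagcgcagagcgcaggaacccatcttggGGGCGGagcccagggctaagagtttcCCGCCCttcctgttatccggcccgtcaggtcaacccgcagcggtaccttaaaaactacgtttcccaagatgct
The ETS match begins 45 bases upstream of the start in Psmd6, 11 in Psmd11, 26 in Psmd2 and 125 in Psmd4. In Psmd11 and Psmd2 it is read on the other strand, as CTTCCGG. Psmd6, Psmd11 and Psmd2 also hold an SP/KLF match (GGGCGG), and Psmc4 has 2 of these, 99 and 73 bases upstream. Psmd4 further has an NF-Y match 95 bases upstream and an interferon-stimulated response element (ISRE, GAAANNGAA), read on the other strand, 79 bases upstream.

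The strength of the promoter peaks was read from the signal, the authors' enrichment value per peak, whose background is not given in the sources used here. It is used only to rank peaks within the list. A gene takes the highest signal among its promoter peaks. Over the 47 proteasome genes with a promoter peak the median signal was 21.3 (order-statistic 95% interval 17.9 to 23.2), with a range from 11.3 to 29.9. Over all protein-coding genes with a promoter peak it was 17.3 (17.2 to 17.5). Signals above that all-gene median were found in 34 of the 47 (72.3%). The median was 19.2 (18.0 to 20.7) for ribosomal protein genes and 19.8 (18.4 to 22.95) for oxidative phosphorylation genes, and both intervals overlap that of the proteasome genes. The difference from all genes was not tested, because genes of 1 sample are not replicates.

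The deposited −log10 p, a second measure that also grows with the number of reads, gave a smaller margin. Its median was 365 (291 to 440) at proteasome promoters against 322 over all genes, and 29 of the 47 lay above the all-gene median. Here the ribosomal protein genes (473) and the oxidative phosphorylation genes (396) had the higher medians. By signal the median proteasome promoter stood at the 72.7th percentile of open protein-coding promoters, and by −log10 p at the 56.4th. Across the 47 genes both measures were related with a Pearson's r of 0.57 (Spearman's rho 0.54), close to 0.57 (rho 0.62) over all genes. These are correlations across genes within 1 sample, and both axes come from the same reads.

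**Figure D1:**
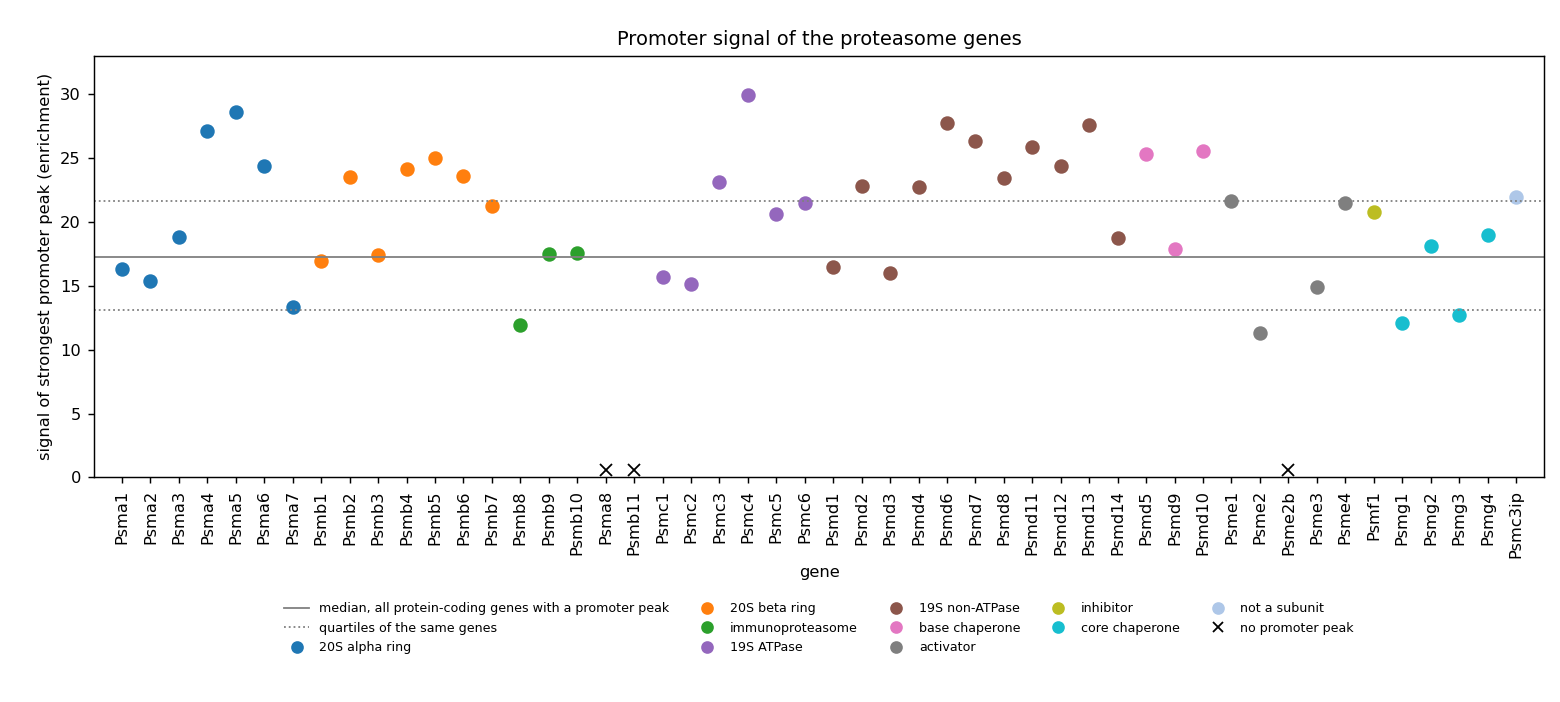
Signal of the strongest promoter peak (vertical axis, the authors' enrichment value) for each of the 50 proteasome genes (horizontal axis, coloured by role). Crosses mark Psma8, Psmb11 and Psme2b, which have no promoter peak, and grey lines give the median (17.3) and quartiles (13.2 and 21.7) over all protein-coding genes with one. Psmc4 is highest at 29.9 and Psme2 lowest at 11.3.

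The alpha subunits form the outer rings of the core and its gate. All 7 constitutive alpha genes had a promoter peak, and their signals ranged from 13.3 to 28.6 with a median of 18.9. Psma5 had a signal of 28.6 and the highest −log10 p of the family, 847. Psma4 had 27.1 (−log10 p 525) and Psma6 24.4 (537). Psma3 stood at 18.9, Psma1 at 16.3, Psma2 at 15.4 and Psma7 at 13.3, so the genes of this ring ran from near the lower quartile of all open promoters to well above the upper one.

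Among the constitutive beta genes, all 7 had a promoter peak, with signals from 16.9 to 25.01 and a median of 23.6, the highest at Psmb5. Of the protease genes, Psmb5 (25.01) lay above this median, Psmb6 (23.6) beside it and Psmb7 (21.3, the trypsin-like protease) below it. Psmb4, a structural beta subunit, had 24.2 and Psmb2 23.6. The lowest were Psmb3 at 17.4 and Psmb1 at 16.9. Psmb1 paired its low signal with a −log10 p of 673, the second highest of the family, so the measures rank this promoter differently.

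The immunoproteasome genes were open as well, each at a lower signal than the constitutive protease that it replaces. Psmb8 had 11.9 against 25.01 for Psmb5, Psmb9 had 17.5 against 23.6 for Psmb6, and Psmb10 had 17.6 against 21.3 for Psmb7. The Psmb8 peak does not cover the 5′ end of the gene, and the Psmb9 peak is shared with Tap1, as described below. Among all open protein-coding promoters Psmb9 and Psmb10 stood near the middle, at the 50.9th and 51.4th percentile, and Psmb8 at the 19.03rd. The order was not the same by −log10 p: Psmb8 (184) and Psmb10 (266) lay below Psmb5 (283) and Psmb7 (351), while Psmb9 (357) lay above Psmb6 (248). With 3 pairs in 1 pool, the differences could not be tested. These values describe open chromatin and not RNA.

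**Figure D2:**
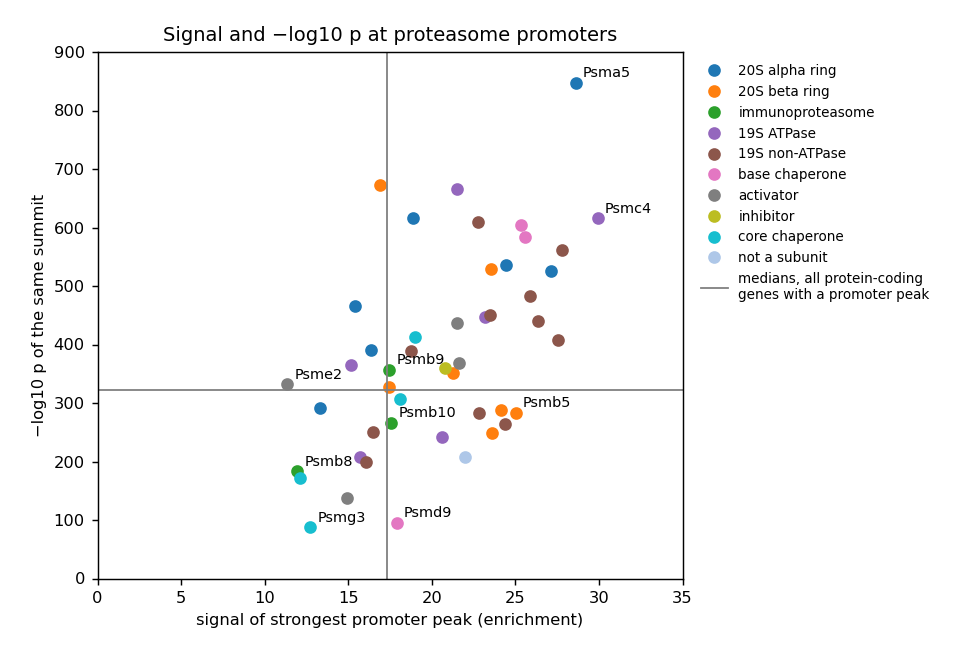
Signal (horizontal axis) against the deposited −log10 p of the same summit (vertical axis) for the 47 proteasome genes with a promoter peak, coloured by role, with grey lines at the medians over all protein-coding genes with a promoter peak (17.3 and 322). Psmb8 lies below both medians, Psmb9 and Psmb10 lie just above the median signal, and Psma5 and Psmc4 lie at the upper right.

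Psmb8 and Psmb9 are neighbours in the MHC class II region, each beside a gene for a subunit of the TAP peptide transporter, Tap1 and Tap2. Psmb9 and Tap1 are read in opposite directions. A start site of Tap1 lies 38 bp upstream of the annotated 5′ end of Psmb9, and the 5′ end of Tap1 lies inside the Psmb9 gene model. The same peak, chr17:34186902-34187930, covers all of these starts, so its signal of 17.5 belongs to both genes. The summit lies 354 bp inside Psmb9, 45 bp upstream of the nearest start site of the gene. Psmb8 differs. Its strongest peak, chr17:34196319-34197125 (11.9), has its summit in an exon of Tap1, 1045 bp upstream of the annotated 5′ end of Psmb8, so the summit is outside the 1 kb window that the peak overlaps in part, and the peak does not reach the 5′ end. A weaker peak at chr17:34198077-34198657 (signal 9.87, −log10 p 144) covers the RefSeq start of Psmb8. Tap2 had 3 small promoter peaks with signals of 5.67, 7.04 and 6.97. With 20 kb on either side, the Psmb8 and Psmb9 loci held 8 peaks each, 6 of them in common. Psmb10, on chromosome 8, held 3: the promoter peak at chr8:105936911-105938558 (17.6) and peaks of 21.9 in an intron and 18.3 in an exon of its neighbour Pskh1. A background taken near a peak would lower the signal of peaks beside other peaks, and whether this bears on the values at Psmb8 and Psmb9 was not tested.

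**Figure D3:**
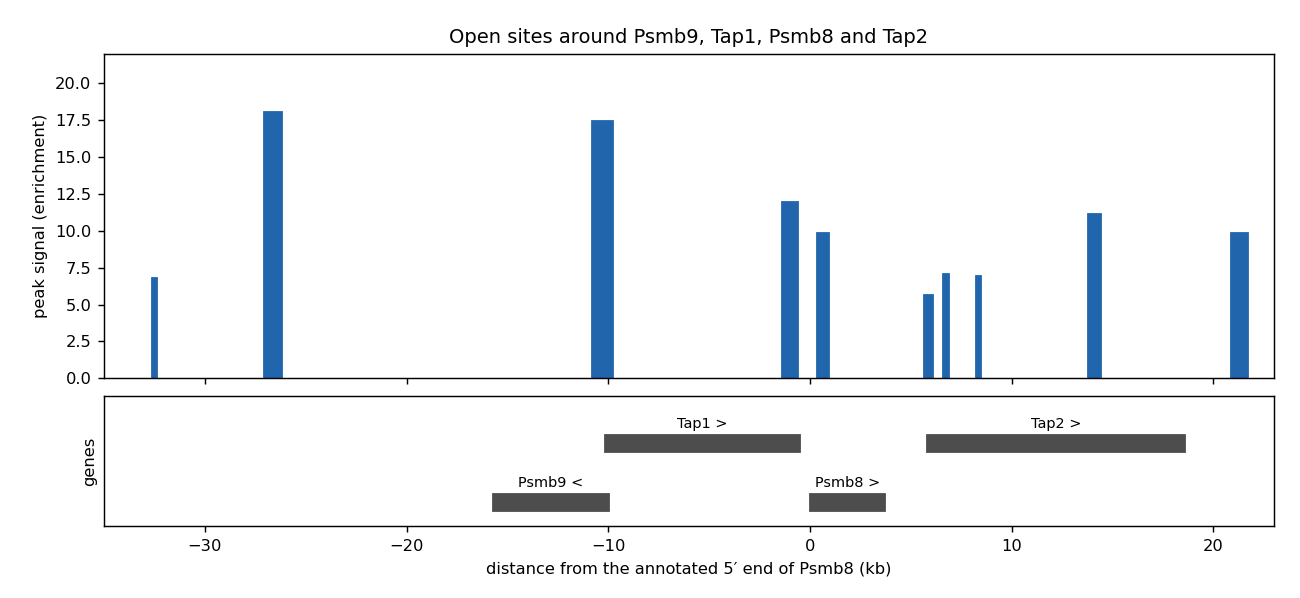
Peaks (upper panel, bar width to scale, height is the authors' signal) and genes (lower panel, arrowheads give the direction of reading) within 20 kb of Psmb8 or Psmb9, by distance in kb from the annotated 5′ end of Psmb8. The starts of Psmb9 and Tap1 lie under a peak of 17.5, and the bars on both sides of the Psmb8 start reach 11.9 and 9.87.

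The 2 core subunits known for single tissues had no promoter peak. Psma8 encodes an alpha subunit of the testis, and the peak closest to its annotated 5′ end lay 22.6 kb away. Psmb11 encodes the beta subunit of the thymic cortical epithelium that replaces Psmb5 there, and it lies next to Psmb5. The closest peak to its annotated 5′ end, 3.04 kb away, was the promoter peak of Psmb5 itself, chr14:54617486-54618398. The exact interval for 0 of 2 reaches up to 84.2%, and a promoter peak was present in only 52.6% of protein-coding genes, so this count carries little weight by itself.

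In the cap, the ATPase subunits form the ring that unfolds substrates. All 6 ATPase genes had a promoter peak, with a median signal of 21.1. Psmc4 at chr7:28049686-28050451 had 29.9 (−log10 p 616), the highest of the 47 and at the 98.4th percentile of all open promoters. Its peak is 766 bp wide and has 1 summit, 51 bp upstream of the 5′ end. Psmc3 had 23.2 (446), Psmc6 21.5 (666) and Psmc5 20.6 (241). Psmc1 at 15.7 and Psmc2 at 15.2 were below the all-gene median.

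The non-ATPase subunits recognise, deubiquitinate and position the substrate. All 11 had a promoter peak with a median signal of 23.5, and 9 of the 11 exceeded the all-gene median. The highest were Psmd6 (27.8, −log10 p 562), Psmd13 (27.6, 407) and Psmd7 (26.3, 440), all structural subunits of the lid. Psmd11 had 25.9 and Psmd12 24.4. The ubiquitin receptor Psmd4 had 22.8, and Psmd14, the deubiquitinase, 18.8. Psmd1 (16.5) and Psmd3 (16.05) were the pair below the median.

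The genes of the factors around the particle were less alike. Of the chaperones that assemble the base of the cap, Psmd10 had 25.6, Psmd5 25.3 and Psmd9 17.9, the last with a −log10 p of only 95.5. The chaperones of the core had the lowest median of the larger roles, 15.4: Psmg4 had 18.99, Psmg2 18.1, Psmg3 12.7 and Psmg1 12.1. Psmg3 also had the lowest −log10 p of the family, 87.2. Psmf1, an inhibitor of the core, had 20.8. Psmc3ip, no subunit, had 21.99, which is within the range of the subunits, so a strong promoter peak was not restricted to subunits in the set.

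Among the activators, 4 of 5 had a promoter peak. Psme1 and Psme2 encode both subunits of the interferon-inducible activator PA28, lie on the same chromosome within 20 kb of each other and had different signals: 21.6 (−log10 p 368) for Psme1 and 11.3 (332) for Psme2. The Psme2 peak, chr14:55590830-55591928, has its summit 551 bp upstream of the Psme2 5′ end, closer to a start site of Rnf31, which is read in the other direction from 595 bp upstream. A second, small peak of Psme2 had a signal of 4.43. Psme4, the nuclear activator PA200, had 21.5, and Psme3, the gamma form of PA28, 14.9. Psme2b, by its symbol a copy of Psme2, had no promoter peak, and the closest peak of the thresholded list lay 12.1 kb from its annotated 5′ end.

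Several promoters are shared with a gene on the other strand. In 10 of 50 proteasome genes (20%) a start site of another protein-coding gene, read in the opposite direction, lay within 1 kb upstream of the 5′ end, against 9.44% of all protein-coding genes, 14.3% of ribosomal protein genes and 30.1% of oxidative phosphorylation genes. The pairs were Psma2 with Mrpl32, Psma7 with Ss18l1, Psmb1 with Tbp, Psmb9 with Tap1, Psmc2 with Dnajc2, Psmc5 with Ftsj3, Psmd13 with Sirt3, Psmd10 with Atg4a, Psme2 with Rnf31 and Psmg2 with Cep76. Distances from the 5′ end to that start site ran from 32 bp (Psmc2) to 595 bp (Psme2). In 6 genes (Psma2, Psma5, Psmb1, Psmc2, Psme2 and Psmg2) the summit of the strongest promoter peak was closer to a start of another gene than to one of their own. With these 6 genes counted as having no promoter peak, 41 of 50 genes (82%) remained. That count also sets aside a second promoter peak of Psmb1 (signal 10.5), which had no start of another gene within 1 kb of its summit. The rule was not run over all genes, so the 82% cannot be set against an all-gene share. A shared peak cannot be told apart into the parts that belong to each gene.

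Most summits sat at the annotated start. The summit lay within 100 bp of the 5′ end of the gene in 30 of 47 genes (63.8%), against 51.9% of all open genes, and upstream of it in 28. The share within 100 bp was higher in open ribosomal protein genes (71.6%) and oxidative phosphorylation genes (75%). The median distance to the nearest start site of the gene was 39 bp against 59 bp over all genes. For ribosomal protein genes it was 25 bp and for oxidative phosphorylation genes 37 bp. In 4 genes the open site was far from the annotated 5′ end but beside a start site within the gene model. It lay 14565 bp downstream of the 5′ end of Psma6, 3953 bp in Psmd5, 58781 bp in Psmd9 and 2864 bp in Psmf1, and 8, 53, 4 and 12 bp from the nearest start site. RefSeq places 2 starts in Psma6. The upstream one, at position 55384222 of chromosome 12, was in no peak, while the downstream one at 55398825 was inside the peak. Their upstream bases are shown for the contrast, together with those of Psmd5.
Psma6, chr12:55384072-55384221, plus strand: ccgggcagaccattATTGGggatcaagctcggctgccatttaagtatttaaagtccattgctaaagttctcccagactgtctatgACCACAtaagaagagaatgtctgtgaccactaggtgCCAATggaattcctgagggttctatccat
Psma6, chr12:55398675-55398804, plus strand: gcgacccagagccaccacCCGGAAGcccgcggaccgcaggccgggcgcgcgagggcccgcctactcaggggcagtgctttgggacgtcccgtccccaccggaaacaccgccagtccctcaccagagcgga
Psmd5, chr2:34870963-34871112, minus strand: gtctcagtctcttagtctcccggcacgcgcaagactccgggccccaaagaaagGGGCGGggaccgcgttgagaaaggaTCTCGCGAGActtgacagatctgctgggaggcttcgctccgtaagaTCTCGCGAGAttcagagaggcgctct
In the first Psma6 stretch the capitals are NF-Y matches 136 and 29 bases upstream and a RUNX match 65 bases upstream, and in the second an ETS match 132 bases upstream. Psmd5 has an SP/KLF match 97 bases upstream and 2 palindromic runs with the ZBTB33 motif (CTCGCGAGA), which matches both strands there, offset by 1 base. Over all members with a RefSeq promoter, 40 of 42 had a RefSeq start inside a peak (95.2%), against 50.1% of protein-coding genes. The exceptions were Psmb11 and Psme2b.

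The loci of the proteasome genes, promoters included, held slightly more peaks than those of all genes. A locus, the gene with 20 kb on either side, had a median of 3 peaks (range 1 to 8; order-statistic 95% interval 2 to 3) against 2 over all protein-coding genes. That interval includes the all-gene median. The median was also 3 for ribosomal protein genes (3 to 4) and for oxidative phosphorylation genes (2 to 3). Counted per gene, 158 peaks were found. Of these, 49 were at the gene's own promoter, 44 at the promoter of another gene and 65 were distal, which means that the summit was over 1 kb from any start site. Since Psmb8 and Psmb9, Psme1 and Psme2, and Psmb5 and Psmb11 lie close together, 13 peaks entered a pair of loci and 145 were distinct. Psmc3 had 7 peaks and Psma3, Psmd4 and Psme1 had 6 each. At the other end, Psma5, Psmb4, Psmc1, Psmc4, Psmd5, Psmd10 and Psmg2 had their promoter peak alone. No distal peak at all was found in 16 of 50 loci (32%), against 54.7% of all genes, a figure that includes the many genes with no promoter peak. The share was 45.2% for ribosomal protein genes and 43.4% for oxidative phosphorylation genes. Their loci had median lengths of 43.3 and 47.3 kb, against 51.6 kb for proteasome genes. The 63 distinct distal peaks had a median signal of 13.7 (range 2.60 to 26.4), against 12.1 over the 20919 distal peaks of the list, and 27 were intronic, 11 exonic and 25 intergenic. In 13 cases the distal peak was within the proteasome gene itself. The strongest were near Psmd6 (26.4, in an intron of Atxn7), Psmb3 (25.9, in an intron of Pip4k2b) and Psmb5 (24.2, in an intron of 4931414P19Rik). Which gene a distal peak acts on cannot be read from these data.

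**Figure D4:**
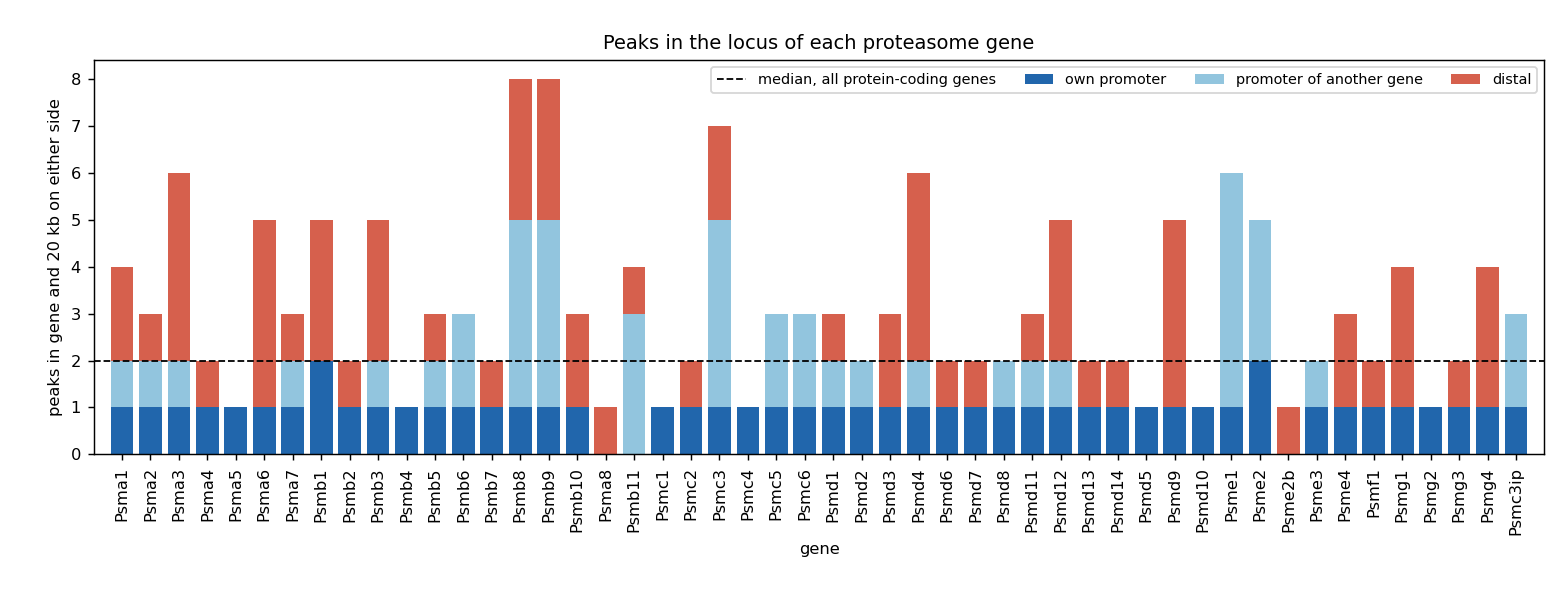
Number of peaks in each proteasome gene and 20 kb on either side (vertical axis), stacked by class: own promoter, promoter of another gene, and distal. The dashed line is the median over all protein-coding genes, 2, and the highest bars, 8, are those of Psmb8 and Psmb9, which share 6 peaks.

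The letters of the promoters were then counted in the window from 250 bases before to 50 after the annotated 5′ end, for 14 motifs on both strands. In Psma6, Psmd5, Psmd9 and Psmf1 this window is not at the open site, which lies further inside the gene. A match is a description of letters and not of a bound factor. The ETS motif was found in 17 of 50 proteasome promoters (34%, exact 95% interval 21.2 to 48.8%), against 10.8% of all protein-coding promoters and 18.1% of those with a promoter peak. It was also found in 27.4% of ribosomal protein and 19.3% of oxidative phosphorylation promoters. In windows of 150 bases on either side of the summit it was present in 19 of 47 (40.4%) against 22.2% of all open genes, and at RefSeq starts in 35.7% against 13.4%. The matches lay in cap genes (Psmc1, Psmc2, Psmc3, Psmc6, Psmd2, Psmd4, Psmd6, Psmd7, Psmd11 and Psmd12), activators (Psme2b, Psme3 and Psme4), core chaperones (Psmg1 and Psmg3) and Psmc3ip. Of the core genes only Psma8, which has no promoter peak, had one in this window, and around the summit Psma6 and Psmb7 had one too. The difference between core and cap was seen in the data and was not tested.

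The SP/KLF motif was in 27 of 50 promoters (54%) against 43.0% of all and 60.4% of open promoters, and NF-Y in 19 (38%) against 39.0 and 39.4%. NRF1 (GCGCANGCG) was in 7 (14%) against 8.30 and 13.3%, and RUNX, the motif of factors with a role in T cells, in 9 (18%) against 15.3 and 12.9%. In each of these the interval for the proteasome genes holds the share of open promoters. The antioxidant response element was found in 6 (12%, interval 4.53 to 24.3%), against 12.5% of all promoters: Psmb2, Psmb5, Psmb6, Psmc6, Psmd7 and Psmd12. Around the summits it was in 12 of 47 (25.5%) against 15.7%, so its share depended on the window.

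Motifs of interferon and inflammatory signalling were counted in the same windows. The ISRE and the GAS element were each in 6 of 50 promoters (12%), against 8.47 and 8.39% of all promoters. Among open promoters these shares were 7.64 and 7.19%. The NF-kB motif (GGGANTTTC) was in 1 (2%) against 1.16% of all and 1.09% of open promoters. This match is at the annotated 5′ end of Psma6, which is in no peak. Around the summits the ISRE was in 9 of 47 (19.1%) against 6.85% of open genes: Psma4, Psmb3, Psmb4, Psmb10, Psmd4, Psmd7, Psme1, Psmf1 and Psmg4. Psmb10 and Psme1 are interferon-inducible genes, while the other 7 include constitutive core and cap subunits. The TATA motif (TATAAA) was in 4 (8%) against 12.7% of all and 7.33% of open promoters, and the E-box in 6 (12%) against 7.75 and 10.3%. YY1 (ATGGCGG) and CRE (TGACGTCA) were in 2 each (4%), YY1 against 4.79 and 7.80% and CRE against 2.43 and 3.56%. ZBTB33 was in 1 (2%), Psmb2, against 0.898 and 1.53%. The ZBTB33 runs shown for Psmd5 lie at its open site, outside the window.

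**Figure D5:**
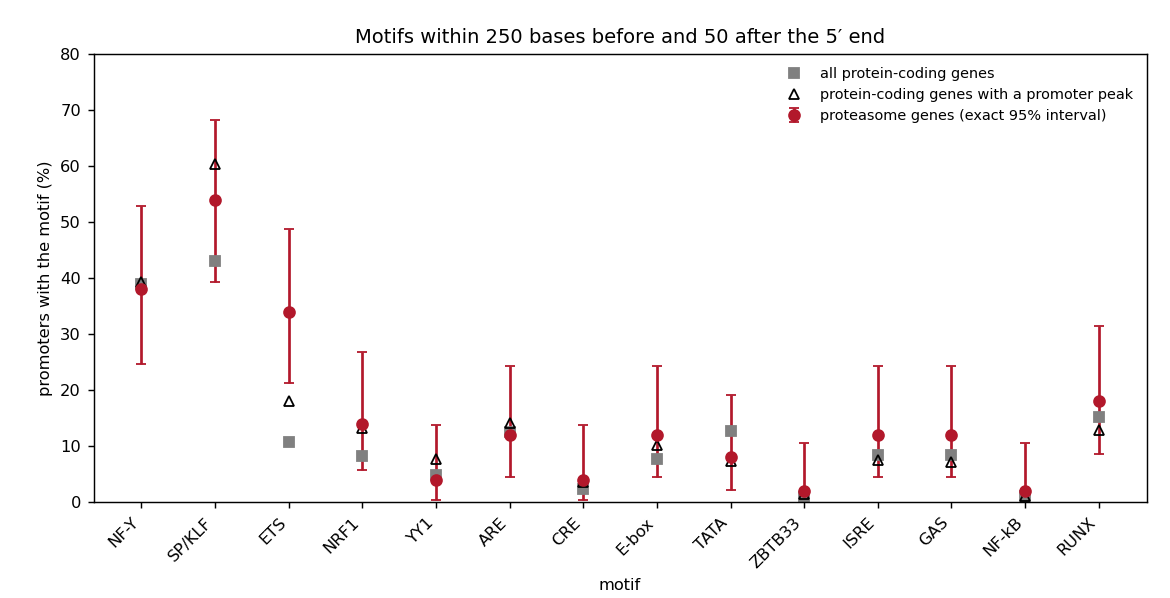
Share of promoters (vertical axis, percent) with each of the 14 motifs (horizontal axis) from 250 bases before to 50 after the 5′ end, for the 50 proteasome genes (red, exact 95% interval), all protein-coding genes (grey squares) and those with a promoter peak (open triangles). ETS, at 34% against 10.8 and 18.1%, is the motif whose interval lies above both other shares.

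These windows held more CpG than the average promoter. The ratio of observed to expected CpG had a median of 0.753 (0.621 to 0.806) in proteasome promoters against 0.525 over all protein-coding genes, which include those that are closed, at a similar GC content (55.2 against 55.0%). Other housekeeping families were alike in this. The median was 0.82 (0.759 to 0.897) for ribosomal protein genes and 0.71 (0.665 to 0.822) for oxidative phosphorylation genes. Within the 47 proteasome genes with a promoter peak, the CpG ratio of this window had a Pearson's r of 0.038 with the signal. The 47 include Psma6, Psmd5, Psmd9 and Psmf1, where the window is not at the open site. Peak width had a median of 1029 bp against 994 bp over all open genes, and both had a median of 3 summits per peak.

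Promoters of the wider pathway were open too. Of 25 further genes of ubiquitin handling and proteasome control, 24 were matched by symbol in the annotation, and 24 of 24 had a promoter peak (exact 95% interval 85.8 to 100%), with a median signal of 16.4. Over all protein-coding genes the share was 52.6%, while only 9 of the 24 had a signal above the all-gene median of 17.3. The highest were Nfe2l1, the CNC-bZIP activator of subunit genes (27.2), Adrm1, a ubiquitin receptor of the cap that the symbol rule does not take in (20.3), and Vcp, an ATPase that extracts ubiquitinated proteins from complexes and membranes (20.1). Of 8 genes of antigen processing, 8 had a promoter peak, the highest at Tap1 (17.5, the peak shared with Psmb9), Erap1, a trimming peptidase (16.4), and Nlrc5, an activator of MHC class I genes (15.8). Of these 8, only Tap1 was above the all-gene median.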

How the data were processed

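The authors deposited 3 peak lists on mm10, called on an alignment that both libraries share, per the deposited file listings. Columns follow the narrowPeak order. The signal (enrichment per summit) and the −log10 p are the authors' deposited values, and 1 list adds a −log10 irreproducible discovery rate (IDR). Aligner, peak caller, versions, background and any Tn5 shift of read ends were not given in the sources used here. The IDR-thresholded list (34610 peaks) was the main set, and the pseudoreplicated list (58871) an alternative. Lines of 1 interval were reduced to the summit of highest signal. No per-library value was used. Genes and start sites came from GENCODE M21 on GRCm38.p6, the same assembly as mm10, and 42 of 50 members matched a RefSeq promoter. A promoter peak overlapped 1 kb on either side of any start site of the gene. Printed stretches were taken from the 150 bases before a RefSeq start, ended where over 30 would lie in an exon. For Psmb8 and Psmb9 only 30 bases were printed, those of Psmb8 placed around a motif match. Shares carry exact Clopper-Pearson and medians order-statistic 95% intervals, and no p-value was computed, since genes are not replicates. Members, lists and motifs were chosen with earlier results of these data known. Named genes were, per role, the 3 of highest signal, those without a promoter peak, and the catalytic, immune, PA28 and tissue-restricted genes. Any other gene named was picked once its values had been seen. Alternatives changed the list, the window, the start sites, a minimum signal or −log10 p, and the sequence window. Python 3.11.15 with numpy 2.4.6, pandas 2.3.3, scipy 1.17.1, pysam 0.24.0 and matplotlib 3.10.9 was used. The functions were tested on simulated data. A few genes of the marker and pathway lists are not reported here.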

Additional observations from a re-analysis of the deposited data

How the results depend on the processing

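Of 67 values under alternative settings, 57 stayed inside the interval of the same value under the main settings. The share of proteasome genes with a promoter peak was 86% when weaker peaks than the median by signal were dropped (all genes 39.2%). With 5′ ends only it was also 86% (48.6%). It was 90% when peaks below the median −log10 p were dropped (44.7%). With the pseudoreplicated list, other promoter windows, coding transcripts or summits in the window it was 94% (51.3 to 57.7%). It fell to 82% when genes whose strongest promoter peak had its summit nearer to a start of another gene were counted as without one. This last setting was added after seeing the data and was not run over all genes. The median signal of proteasome genes ran from 21.3 to 21.5. Over all genes it moved more, from 16.6 with the pseudoreplicated list to 19.4 when peaks below the median signal were dropped. The margin over all genes was therefore smallest in that last setting. Loci held a median of 4 peaks with the pseudoreplicated list, 1.5 with 5 kb and 5 with 50 kb around the gene, where all genes had 3, 1 and 3. With a window of 500 bases before to 100 after the 5′ end, NF-Y was in 54% (all genes 58.3%), YY1 in 16% (7.66%) and the antioxidant response element in 32% (21.5%). Around the summits the antioxidant response element was in 25.5% (15.7%) and NF-kB in 0% (1.14%). At RefSeq starts, also added after seeing the data, CRE was in 0% (2.64%). The cause of these shifts was not tested, beyond the longer or moved window itself. Roles hold too few genes for such intervals to show stability; with 5′ ends only, Psmf1 has no promoter peak (0%). No paired analysis was possible because the libraries were pooled before peaks were called and form 1 group. With no read counts in the lists, a closed promoter and one under the detection limit cannot be told apart.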
